A study of Mus musculus with 9 samples.

Results

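The regions described here are 3327 stretches of accessible chromatin that were first called at D12S+ during the reprogramming of mouse fibroblasts and were called again at D16S+ and in iPSCs. They were chosen by these calls. The ATAC-Seq peaks of 7 time-course libraries were merged into 204843 union regions on chromosomes 1 to 19, and the chosen regions, called members below, have no peak overlapping them by 1 bp or more at D0, D3, D6T- or D9T- but have such a peak in the later 3 libraries. They are 1.62% of the union regions, have a median width of 499 bp (from 236 to 2110 bp) and cover 1807 kb. ATAC-Seq cuts accessible DNA with the Tn5 transposase, and a called region is a place where sequenced ends pile up beyond a threshold. The libraries held mouse embryonic fibroblasts (MEFs) of E13.5 embryos carrying Oct4-GFP before infection (D0), the same kind of cells after retroviral pMXs vectors had brought in Oct4, Sox2, Klf4 and c-Myc (OSKM) at D3, Thy-1-negative cells at D6 (D6T-) and D9 (D9T-), SSEA-1-positive cells at D12 (D12S+) and D16 (D16S+), and iPSCs. By the labels, infected cells grew without feeders in medium with LIF, ascorbic acid, bFGF and CHIR99021, an inhibitor of Gsk3. A further 2 libraries came from D6 cells that received 50 nM siRNA before infection, either against histone H3.3 (D6 siH3.3) or without a target (D6 siNT), and the labels describe them as Thy-1-negative, although the study's list of libraries gives no sorting for them. There was 1 library per condition, so no difference between conditions has a replicate check and none was tested. D9T- and D12S+ differ in day and in the surface marker used for sorting, and these cannot be told apart.

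In MEFs, most enhancers of the pluripotency network lie in closed chromatin. During reprogramming, Thy-1, a fibroblast surface protein, is lost early, SSEA-1, a carbohydrate of early embryonic cells, appears later, and endogenous Nanog, Esrrb and their partners switch on late. Oct4 and Sox2 often bind side by side at a joint motif, Klf factors bind GC-rich boxes, Zic factors bind G-rich elements in pluripotent and neural cells, and AP-1 binds many fibroblast enhancers. Copies of mobile elements hold many binding sites of these factors in the mouse genome.

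The libraries held from 13213117 tags (D9T-) to 31714845 tags (D0), and D12S+, D16S+ and iPSCs had 17613087, 21172835 and 26580724. The deposited value is the summit pileup, the number of tags extended to 200 bp over the highest point of a peak, given here per 1000000 tags of the library (CPM). No value exists where no peak was called, so the level of a member before D12S+ is known only to lie below what was called there, and the lowest called summit was between 0.331 CPM (D3) and 0.530 CPM (D9T-). At D12S+, 3079 of the 3327 members (92.5%) had at least 0.530 CPM, and all of them exceeded the lowest called level of D0, D3 and D6T-. Of 10 pluripotent-cell marker genes, 2 had a promoter call at D0, 5 at D6T-, 2 at D9T-, 9 at D12S+ and all 10 at D16S+ and in iPSCs. A low count at D9T-, the library with the fewest peaks (36708), was not particular to them. At D6T-, D9T- and D12S+, 6, 1 and 4 of 6 primitive endoderm genes and 4, 3 and 4 of 5 neural genes had a call. For 6 trophoblast genes these were 3, 2 and 2, and for 5 blood genes 2 in each. Of 12 fibroblast genes, 10 had a promoter call at D0, D12S+ and D16S+, 12 at D3, 11 at D6T- and 7 each at D9T- and in iPSCs. In iPSCs Col1a2, Col3a1, Postn, Prrx1 and S100a4 had none, of which Col3a1 and Prrx1 had none at D0 either. Their share in the changes described below was not tested. Intervals given below are 95% Wilson intervals, which cover counting error only.

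The sequences under the summits are shown first, since related sequences recur among the members. The strongest members, ranked by the lowest CPM of their 3 late libraries, are given with the name of the nearest protein-coding gene, 200 bp around the highest summit in the mm9 (NCBIM37) build, without any annotated UTR bases. Capitals mark letters of any of the 15 motifs searched, which are spelt out further on. Families, defined below, are numbered by size, and members of a family are printed on the strand that aligns with the others.
Mettl15 (chr2:108684150-108684349, minus strand, family 2): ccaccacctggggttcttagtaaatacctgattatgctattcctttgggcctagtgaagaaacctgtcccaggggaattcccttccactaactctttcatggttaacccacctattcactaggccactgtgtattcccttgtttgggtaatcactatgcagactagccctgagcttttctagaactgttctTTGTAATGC
Gm14139 (chr2:150007376-150007490, plus strand, family 31): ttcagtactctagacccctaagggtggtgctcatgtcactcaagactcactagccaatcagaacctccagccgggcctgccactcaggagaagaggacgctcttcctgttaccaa
Gm8991 (chr5:16474683-16474882, plus strand, family 2): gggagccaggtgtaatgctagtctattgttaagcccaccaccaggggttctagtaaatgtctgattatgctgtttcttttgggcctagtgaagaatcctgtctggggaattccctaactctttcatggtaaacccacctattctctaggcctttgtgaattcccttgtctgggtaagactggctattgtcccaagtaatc
Inhba (chr13:16922284-16922483, minus strand, family 2): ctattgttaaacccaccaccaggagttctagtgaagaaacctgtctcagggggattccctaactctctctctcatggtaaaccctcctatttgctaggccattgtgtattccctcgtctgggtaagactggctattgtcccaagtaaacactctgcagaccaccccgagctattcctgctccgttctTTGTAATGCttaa
Lrrtm3 (chr10:64207016-64207215, plus strand, family 2): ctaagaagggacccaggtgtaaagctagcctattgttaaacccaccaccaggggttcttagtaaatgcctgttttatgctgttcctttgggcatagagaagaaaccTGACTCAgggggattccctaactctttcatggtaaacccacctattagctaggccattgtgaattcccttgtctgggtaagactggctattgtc
Hs3st5 (chr10:36331314-36331513, minus strand, family 1): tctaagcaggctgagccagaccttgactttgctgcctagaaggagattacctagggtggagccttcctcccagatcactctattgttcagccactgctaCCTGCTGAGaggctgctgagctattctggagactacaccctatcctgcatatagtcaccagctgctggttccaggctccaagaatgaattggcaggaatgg
6230409E13Rik (chr4:22072170-22072369, minus strand, family 2): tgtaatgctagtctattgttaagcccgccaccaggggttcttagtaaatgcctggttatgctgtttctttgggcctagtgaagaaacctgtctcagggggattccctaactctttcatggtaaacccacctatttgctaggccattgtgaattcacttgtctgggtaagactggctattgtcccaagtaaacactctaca
Mmp16 (chr4:17019338-17019537, minus strand, family 1): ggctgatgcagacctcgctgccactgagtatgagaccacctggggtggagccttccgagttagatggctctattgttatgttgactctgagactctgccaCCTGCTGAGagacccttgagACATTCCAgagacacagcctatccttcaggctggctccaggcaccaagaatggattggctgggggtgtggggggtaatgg
Plxdc2 (chr2:16733240-16733439, plus strand, family 2): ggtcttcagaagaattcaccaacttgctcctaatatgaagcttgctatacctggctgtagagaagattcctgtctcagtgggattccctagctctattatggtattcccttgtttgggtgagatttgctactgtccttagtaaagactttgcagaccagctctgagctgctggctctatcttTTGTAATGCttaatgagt

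Among these, the sequences near Mettl15, Gm8991, Inhba, Lrrtm3, 6230409E13Rik and Plxdc2 belong to the same family, family 2, and those near Hs3st5 and Mmp16 to family 1. The next sequences show members at 2 pluripotency genes that hold the joint Oct4-Sox2 letters, at the promoter of Nanog (141 bases remain without UTR) and downstream of Utf1.
Nanog (chr6:122657366-122657506, plus strand, no family): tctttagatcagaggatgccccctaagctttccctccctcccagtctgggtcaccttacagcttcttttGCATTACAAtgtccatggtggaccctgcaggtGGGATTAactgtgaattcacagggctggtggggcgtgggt
Utf1 (chr7:147131566-147131765, plus strand, no family): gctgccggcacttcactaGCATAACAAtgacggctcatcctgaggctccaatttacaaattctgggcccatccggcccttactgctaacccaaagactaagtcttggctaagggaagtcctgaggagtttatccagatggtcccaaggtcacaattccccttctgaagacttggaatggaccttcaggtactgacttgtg

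Strong members of families 3, 4 and 5 follow, as a pair from each, to show the likeness between distant loci, which for family 3 lie on the same chromosome. They were picked after the families had been seen.
Stk17b (chr1:53806857-53807056, plus strand, family 3): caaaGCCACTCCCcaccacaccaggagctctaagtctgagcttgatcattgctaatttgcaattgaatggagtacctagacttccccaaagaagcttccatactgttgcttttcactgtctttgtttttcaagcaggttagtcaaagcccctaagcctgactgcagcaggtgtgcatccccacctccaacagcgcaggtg
Cntnap5a (chr1:115855933-115856132, minus strand, family 3): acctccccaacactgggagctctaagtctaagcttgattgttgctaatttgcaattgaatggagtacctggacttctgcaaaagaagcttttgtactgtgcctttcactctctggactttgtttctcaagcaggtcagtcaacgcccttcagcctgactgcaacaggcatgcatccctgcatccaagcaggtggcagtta
Rb1cc1 (chr1:6272577-6272776, minus strand, family 4): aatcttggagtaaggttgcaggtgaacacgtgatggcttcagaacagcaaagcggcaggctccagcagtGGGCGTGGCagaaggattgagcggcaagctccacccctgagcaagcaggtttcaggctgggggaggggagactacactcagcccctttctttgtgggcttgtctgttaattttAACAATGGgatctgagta
Cox7c (chr13:86193829-86194028, plus strand, family 4): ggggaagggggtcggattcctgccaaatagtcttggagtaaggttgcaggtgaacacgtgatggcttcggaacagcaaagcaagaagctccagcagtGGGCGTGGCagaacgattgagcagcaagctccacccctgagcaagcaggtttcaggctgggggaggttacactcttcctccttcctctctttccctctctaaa
Arrdc3 (chr13:80862556-80862755, minus strand, family 5): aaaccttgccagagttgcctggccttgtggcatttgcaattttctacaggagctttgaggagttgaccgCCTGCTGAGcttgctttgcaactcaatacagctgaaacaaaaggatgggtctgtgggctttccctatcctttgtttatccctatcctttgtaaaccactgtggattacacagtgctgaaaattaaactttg
Rnf219 (chr14:105188668-105188867, minus strand, family 5): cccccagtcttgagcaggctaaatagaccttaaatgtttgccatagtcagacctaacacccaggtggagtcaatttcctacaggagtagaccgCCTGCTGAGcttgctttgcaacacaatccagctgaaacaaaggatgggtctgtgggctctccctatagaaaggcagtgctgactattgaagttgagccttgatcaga

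Many of the members were copies of a few sequences. When the 200 bp windows of the members were aligned with each other, 852 of 3327 (25.6%, 24.2 to 27.1) matched another member with at least 80% identity over at least 100 bp, and linking such pairs gave 65 families, 12 of them with 10 or more members. The largest were family 1 with 246 members, family 2 with 201, family 3 with 72, family 4 with 28 and family 5 with 27. Linked members of family 1 were identical at a median of 87.6% of aligned bases, those of family 2 at 89.7%, those of family 3 at 88.4%, those of family 4 at 93.4% and those of family 5 at 86.5%. Families 1 and 2 had members on all 19 chromosomes, family 3 on 18, family 5 on 14 and family 4 on 11, so the copies are spread over the genome, although some lie close together, as in Sntg1 below.

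The share of related sequences was higher in regions first called at D12S+ or D16S+ than in those that opened at D3 or D6T-. Of the 3285 regions first called at D16S+ and called in iPSCs, 26.5% (869) were in families made in the same way within that set, close to the members. Of the 594 regions that opened at D6T- and were called in every later library, 10.1% (60) were in families, of the 2146 that opened at D3 and were called in every later library 2.05% (44), and of the 13097 called in all 7 libraries 2.34% (307). Larger sets have more chances of a match, so the sizes of the sets bear on these shares. A measure that does not depend on set size was also taken. A window whose median 18-base word lay at 10 or more places in the genome was found in 14.4% (13.2 to 15.6) of the members, 20.5% of the regions first called at D16S+, 7.24% of those opening at D6T-, 1.86% of those opening at D3, 0.909% of those called in all 7 libraries and 5.35% of all union regions. The 27919 regions with no call before D12S+, whatever their later calls, had 14.8%, close to the members, and those called in iPSCs alone had 7.26%. Among members in a family the share was 50.9%, and outside families it was 1.78%.

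The genome holds further copies of each family, and their calls are given as a description. The same 7 libraries chose the members, from which the families were made, and a copy without a member is 1 that did not meet the rule. A search of chromosomes 1 to 19 with the most connected member of each family, at the same identity and length, found 958 copies of family 1, of which 143 overlapped a member, 519 of family 2 with 148, 357 of family 3 with 57, 1947 of family 4 with 31 and 441 of family 5 with 26. Members that resemble this sequence less were missed, so the counts cover only part of each family. Of the 371 copies of family 2 without a member, 1.08% were called at D0 and 1.62% at D3, then 7.28% at D6T- and 7.55% at D9T-. The 3 late libraries had 15.1%, 28.6% and 36.9%. Calls on these other copies were thus more frequent in the 3 late libraries than in the early ones, and most frequent in iPSCs. This is not independent of the choice of members. Of the 815 such copies of family 1, between 0.245% (D0) and 2.45% (D6T-) were called before D12S+, followed by 7.73%, 21.6% and 22.2% in the late libraries in order. The 300 copies of family 3 went from none at D0 and D3 and 4.67% at D9T- to 15.0%, 29.3% and 17.7%. For the 1916 copies of family 4 the late values were 5.85%, 14.2% and 4.49%, and for the 415 of family 5 they were 4.82%, 9.88% and 11.3%. Families 3 and 4 were called most often at D16S+ and less often in iPSCs, whereas family 2 had its highest share in iPSCs. Families 1 and 5 had similar shares in both, with intervals that overlap widely (for family 5, 7.37 to 13.1 and 8.62 to 14.7). Removing copies with a member removes those with all 3 late calls and no early call, so the late shares are low by construction. In addition, 77 other copies of family 1, 48 of family 2 and 22 of family 3 overlapped regions first called at D16S+. Reads that map to several places had been discarded by the authors, which limits calls on copies that are nearly identical, and D9T-, with the fewest tags, had the fewest peaks. Their part in these shares was not tested.

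**Figure D1:**
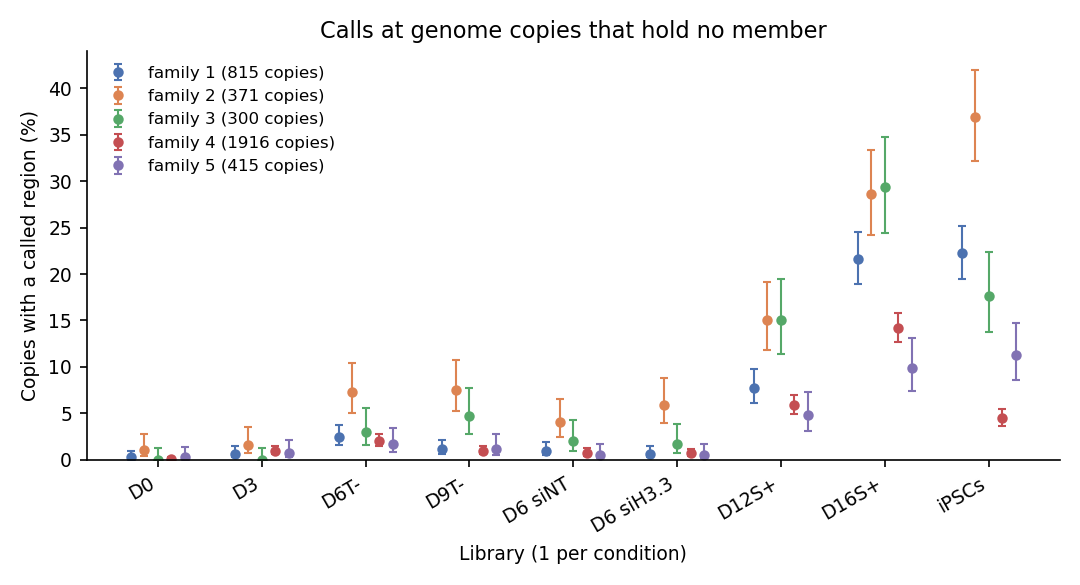
Share of genome copies with a called region (vertical axis, percent) in each of the 9 libraries, for the 5 largest families and only for copies that do not overlap a member; points are shares and bars their 95% Wilson intervals. The shares are under 8% in every early and siRNA library, and at D16S+ they lie between 9.88% (family 5) and 29.3% (family 3).

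Motif letters were counted in the 200 bp window on both strands, in the members and in windows of the same length over all union regions. The letters were TTGTNATGC for the Oct4-Sox2 composite, ATGCAAAT for the octamer that Oct4 binds, CCATTGTT for Sox, GGGNGTGGC for Klf, TCAAGGTCA for Esrrb or Nr5a2, TTCCNGGAA for Stat3, CCTGCTGNG for Zic, GGGATTA for Otx2, AACCNGTT for Grhl, TGANTCA for AP-1, ACATTCCA for TEAD, TGTGGTT for Runx, CNAGGGGGC for CTCF, CCGGAAGT for Ets and GCGCATGCG for Nrf1, with N for any base. The composite ends in the 4 letters that open the octamer, so both can be counted on overlapping bases. A match shows that the letters are present, not that a factor was bound.

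Most letters of pluripotency factors were more frequent in the members than in all union regions, and those of AP-1 less frequent. The composite was in 4.06% (3.44 to 4.78) of the members and 0.929% of all union regions, the octamer in 4.45% against 1.68%, and the Sox letters in 2.55% (2.07 to 3.15) against 1.13%. Zic letters were in 13.1% (12.0 to 14.3) of the members against 3.15%. These 4 stood above the union in the members, but an excess was shared by other late regions. Regions first called at D16S+ had 2.37% for the composite, 3.65% for the octamer, 1.34% for Sox and 7.21% for Zic. All regions with no call before D12S+ had 1.74%, 3.02%, 1.32% and 6.50% in the same order. Letters of Esrrb or Nr5a2, orphan nuclear receptors of the naive network, were in 1.05% (0.757 to 1.46) against 0.428%, and those of Grhl, a factor of epithelial cells, in 3.19% (2.64 to 3.84) against 1.37%. Klf letters were in 4.96% (4.27 to 5.75) against 3.33% and those of Otx2 in 2.77% (2.26 to 3.38) against 1.74%, whereas those of Stat3, with 0.902% (0.632 to 1.28) against 0.790%, were not distinguishable from the union. AP-1 letters were in 5.68% (4.94 to 6.52) of the members and in 24.2% of all union regions. Low AP-1 was not particular to the members, since regions first called at D16S+ had 4.66% and all regions with no call before D12S+ had 5.35%. Those first called at D16S+ also had 4.69% for Grhl and 1.28% for Esrrb or Nr5a2. Regions that opened at D3 and were called in every later library had 9.55% for AP-1, 3.91% for Zic, 2.05% for the composite and 0.0466% for Esrrb or Nr5a2. Those opening at D6T- had 7.58% for the composite, more than the members, but 5.39% for Zic, fewer than the members.

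The families held much of the Zic and composite letters. Zic letters were in 27.0% (24.1 to 30.1) of members in a family and 8.36% (7.34 to 9.52) of those outside, and the composite in 8.80% (7.08 to 10.9) and 2.42% (1.89 to 3.11). Both stayed above the values of all union regions outside the families. In contrast, the octamer was in 3.40% of members in a family and in 4.81% (4.03 to 5.72) outside. AP-1 letters were in 8.10% (6.45 to 10.1) of members in a family and 4.85% (4.07 to 5.77) outside, and in 11.8% of family 1. Of the large families, 80.5% of family 1 and 66.7% of family 5 held Zic letters, 82.1% of family 4 held Klf letters, and 35.3% of family 2 held the composite. Family 3 had no such leading letters, since its most frequent were those of the octamer, in 9.72%. The members of a family share an ancestor sequence, so they do not count as separate sites, and the intervals over all members are too narrow for this reason.

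**Figure D2:**
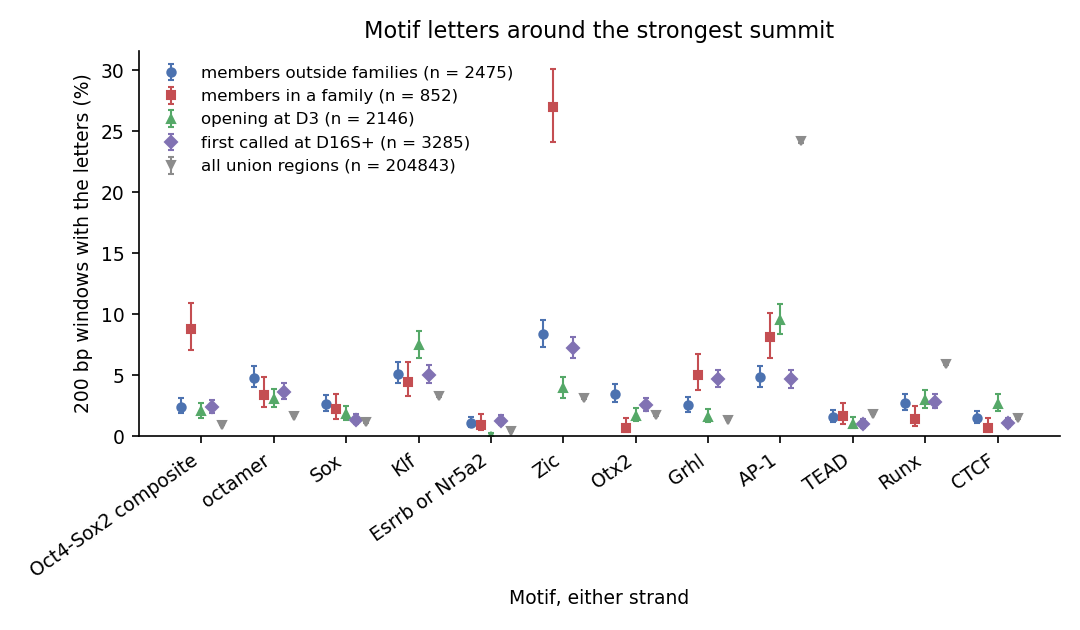
Share of 200 bp windows with the letters of each of 12 motifs on either strand (vertical axis, percent), for members outside and in families, regions opening at D3 and called in every later library, regions first called at D16S+, and all union regions; bars are 95% Wilson intervals. Zic letters reach 27.0% in family members. AP-1 letters reach 24.2% in all union regions, against 8.10% in family members and 4.85% in members outside families.

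The letters lay at different places in the windows of the 2 largest families, which was examined after their frequency was known. In windows of 400 bp, 85.4% of family 1 held Zic letters at a median of 31 bp from the summit, and 163 of 211 matches lay within 50 bp. In the same windows, 84.1% (78.4 to 88.5) of family 2 held the composite, at a median of 108 bp from the summit, with quartiles of 70 and 135 bp, and only 22 of 173 matches lay within 50 bp. The Zic letters of family 1 were thus at the point of highest pileup, whereas the composite letters of family 2 mostly lay away from it. The 173 composite matches fell in 169 windows, so most of these windows held the letters on 1 side of the summit only. In the aligned sequences near Mettl15, Inhba and Plxdc2 printed above, the letters lie near the right end. Whether they lie on the same side in all copies was not tested. Among members outside the families, the composite was in 3.47% of the 400 bp windows at a median of 55.5 bp, and over all union regions in 1.55% at 79 bp. For Zic these were 11.8% at 64.5 bp and 5.37% at 82 bp. The sequences near Gm8991 and 6230409E13Rik above, both of family 2, hold no capitals, since none of the letters searched lie in their 200 bp.

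**Figure D3:**
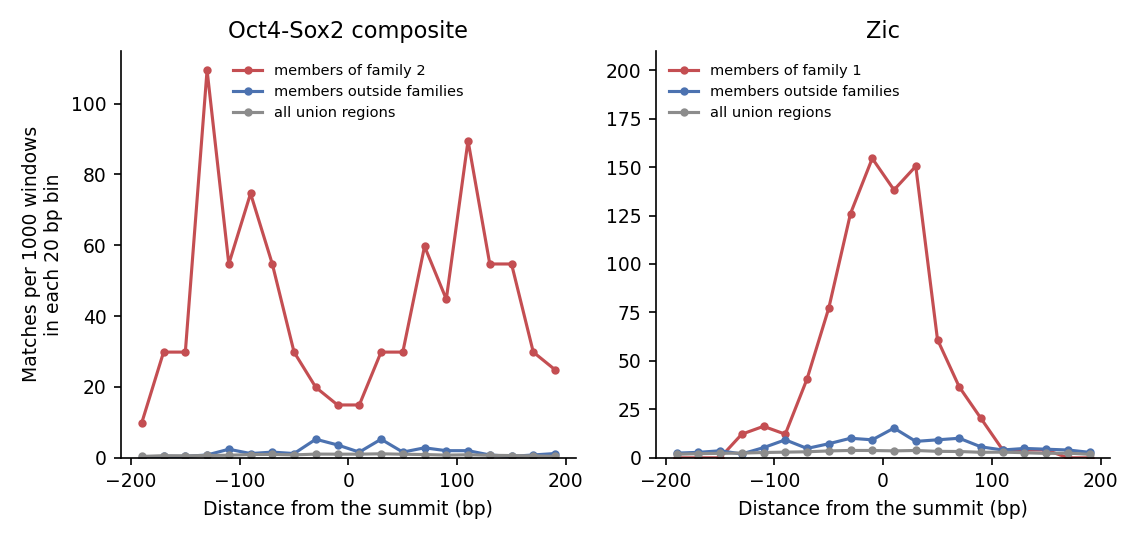
Number of motif matches per 1000 windows in bins of 20 bp (vertical axis) against the distance from the summit in bp (horizontal axis), for the Oct4-Sox2 composite on the left and Zic on the right; the lines are the named family, members outside families and all union regions. Counted over all windows of family 2, most of which hold at most 1 match, the composite has a peak on each side of the summit. It has a dip at the summit, while Zic letters of family 1 have their peak there.

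Members lay between genes more often than did all union regions, and this held for members in families but less so for the rest. By their midpoint, 11.4% (10.4 to 12.5) were in a promoter, taken as 3 kb upstream of a TSS, 38.1% (36.4 to 39.7) in a genebody and 50.5% (48.8 to 52.2) between genes, against 13.6%, 47.6% and 38.9% of all union regions. The regions that opened at D3 and were called in every later library had 25.8% in promoters and 30.7% between genes, whereas those opening at D6T- (11.1% and 51.5%) and those first called at D16S+ (9.92% and 52.2%) were placed much like the members. Only 6.82% (6.02 to 7.73) of members had their summit within 1 kb of a protein-coding TSS, compared with 12.1% of all union regions, 31.7% of those opening at D3 and 69.1% of those called in all 7 libraries. The median distance to a protein-coding TSS was 23.3 kb for the members and 17.9 kb for all union regions. Members in a family lay farther out than the rest. They were at a median of 52.4 kb, 71.1% of them lay between genes and 37.7% were over 100 kb from a protein-coding TSS. Members outside the families were at 17.5 kb, with 43.4% between genes and 14.9% over 100 kb away, against 17.2% of all union regions. GC content was similar, with medians of 51.5% in the members and 50.5% in all union regions.

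**Figure D4:**
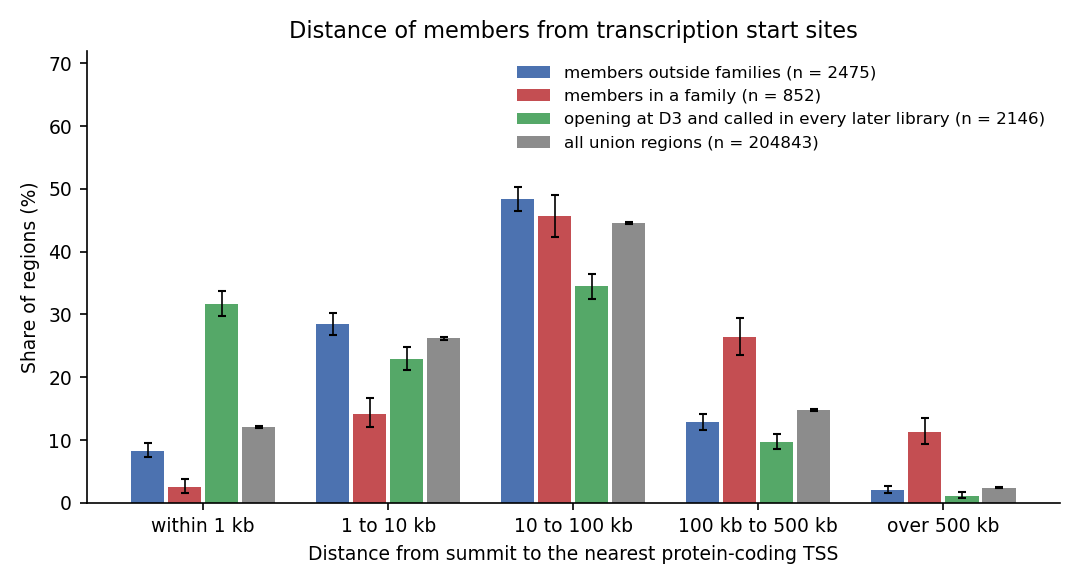
Share of regions (vertical axis, percent) by the distance of the summit from the nearest protein-coding TSS, for members outside and in families, regions opening at D3 and called in every later library, and all union regions; bars start at 0 and error bars are 95% Wilson intervals. Regions opening at D3 have their excess within 1 kb, and members in families theirs beyond 100 kb.

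The levels in the 3 late libraries are given as a description, since calls in these libraries chose the members. The median summit was 0.795 CPM at D12S+, 0.897 at D16S+ and 0.752 in iPSCs, which are pileups of 14, 19 and 20 tags. A pileup of 14 has an exact 95% Poisson interval of 7.65 to 23.5, and 20 has one of 12.2 to 30.9, so single members are measured coarsely. The 13097 regions called in all 7 libraries were higher at D12S+ and D16S+, with medians of 1.99 and 1.84 CPM, and 1.05 in iPSCs. Members were thus low in all 3 libraries, and the gap to the permanent regions was narrower in iPSCs.

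D16S+ was the library with the highest level for most members. It was highest in 1779 of them (53.5%), D12S+ in 815 (24.5%) and iPSCs in 733 (22.0%), whereas among all 27084 regions called in the 3 libraries the shares were 42.1%, 49.6% and 8.29%. The median ratio of D16S+ to D12S+ was 1.17, and 809 members (24.3%) were at least 1.5-fold higher at D16S+, against 9.88% of the 27084 regions, while 176 (5.29%) were at least 1.5-fold lower, against 12.6%. From D16S+ to iPSCs the median ratio was 0.826, with 209 members (6.28%) up by 1.5-fold against 2.42%, and 950 (28.6%) down against 48.8%. Between D12S+ and iPSCs it was 0.966, with 438 members (13.2%) up against 3.11% and 599 of 3327 down against 53.4%. Lower levels in iPSCs were thus less frequent among the members than among all regions called in these libraries, and higher ones more frequent, as a description of single libraries. The sets differ in level, with medians at D12S+ of 0.795 CPM in the members and 1.19 in the 27084 regions. Both needed a call in iPSCs, where the lowest called summit was 0.376 CPM, so a large fall from a low level removes a region from the set. Tags outside peaks also enter the scaling. The part of these in the ratios was not tested.

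Members in families had somewhat higher levels and larger ratios. Their medians were 0.795, 1.18 and 0.903 CPM at D12S+, D16S+ and in iPSCs, against 0.738, 0.850 and 0.715 outside the families, and the median ratio of D16S+ to D12S+ was 1.34 in them and 1.13 outside. Family 2 had 0.852, 1.32 and 1.20 CPM, and its median ratio of iPSCs to D12S+ was 1.27. It also provided 16 of the 40 strongest members.

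**Figure D5:**
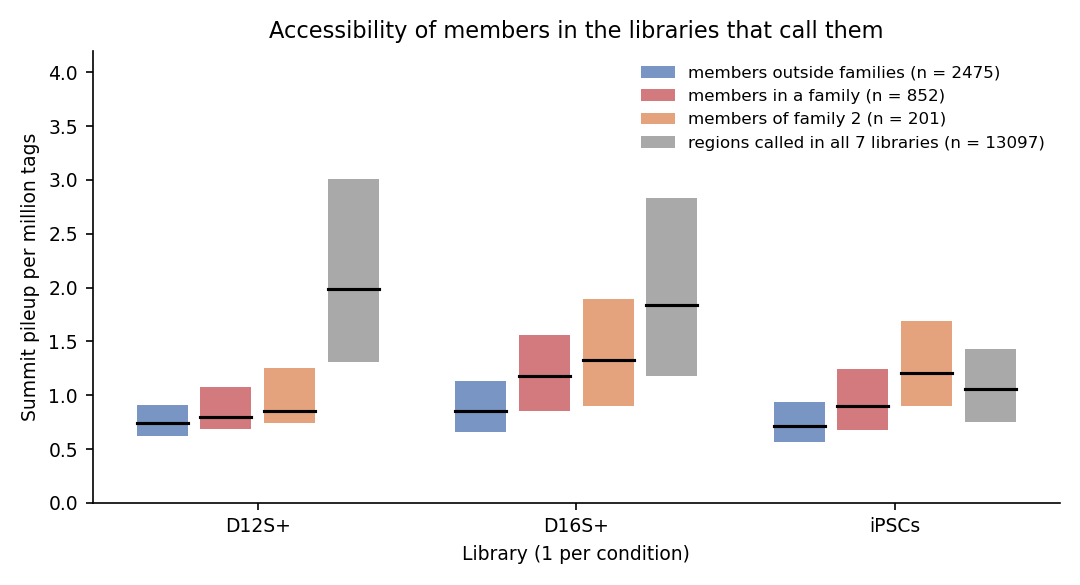
Summit pileup per 1000000 tags (vertical axis) at D12S+, D16S+ and in iPSCs for members outside families, members in a family, members of family 2, and regions called in all 7 libraries; boxes span the quartiles over regions of 1 library and lines are medians. Family 2 has medians of 0.852, 1.32 and 1.20 CPM, and regions called in all 7 libraries go from 1.99 to 1.05.

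The strongest member of all lay 434 kb downstream of the TSS of Mettl15, between genes, and its levels at D12S+, D16S+ and in iPSCs were 2.73, 3.83 and 3.16 CPM. The member near Inhba had 2.55, 4.16 and 2.45 CPM, that near Gm8991 2.55, 4.58 and 2.48, and that near Plxdc2 3.07, 3.54 and 2.14. All 4 belong to family 2 and were highest at D16S+. The member at the promoter of Gm14139 had 2.61, 2.74 and 3.42 CPM. It was the only one of those printed above as strongest that was highest in iPSCs, and the only one of them in a promoter.

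The members that differed most between D12S+ and iPSCs were often in families too. The largest ratio of iPSCs to D12S+ was 4.06-fold, 44.4 kb upstream of Tbx20, a heart transcription factor gene, with 0.454 CPM at D12S+, 1.09 at D16S+ and 1.84 in iPSCs in a member of family 21. It was followed by 3.71-fold near Svip (family 2, 0.568 and 2.11 CPM), 3.42-fold at the promoter of the noncoding Gm14133, 3.39-fold near Ddx18 and 3.37-fold near Galc (family 2). The largest ratio of D12S+ to iPSCs was 6.41-fold at the promoter of the pseudogene Gm14402 (family 18), which had 3.86 CPM at D12S+, 5.71 at D16S+ and 0.602 in iPSCs. Ratios of 4.53-fold near Ifitm7 (family 1), 4.15-fold near G6pd2 (family 3), 3.83-fold in Ostm1 and 3.13-fold near Cyb5 (family 4) came next. With pileups as low as 8 tags at Tbx20, such extremes carry a large counting error.

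Genes of the pluripotency network had members more often than genes at large, but so did most other lists described below. Over all 34653 genes on these chromosomes, 1538 (4.44%) had a member between 3 kb upstream of a TSS and the TTS, and over the 21418 protein-coding genes 1311 (6.12%) did. Of 13 naive pluripotency factors, 4 had a member there (Esrrb, Klf5, Nanog and Zfp42), and Klf2, Klf4, Prdm14, Sall4 and Sox2 had the nearest TSS to a member within 100 kb. For genes, a member counted as in the promoter where any of its bases overlapped the 3 kb before a TSS. Of 20 late pluripotency markers 6 had a member, all of them reaching into the promoter, with the midpoint inside the genebody at Dppa5a and Gdf3 (Dppa5a, Fgf4, Gdf3, Tdgf1, Tdh and Zscan10). The shares were 30.8% for the naive and 30.0% for the late list. They were higher for the primed (38.5%), epithelial (34.8%), FGF and ERK, Wnt and DNA methylation lists. The Nodal and TGF-beta, Polycomb, germline, mesenchymal and LIF and Stat3 lists had lower shares. The excess over all genes was thus not particular to the pluripotency network. Gene length and the number of union regions per gene were not allowed for. The lists were put together with knowledge of these data, and their shares are a description.

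Nanog, the homeobox factor of the naive state, had its member at chr6:122656972-122657687, with the summit 41 bp upstream of the TSS. Its levels were 0.852 CPM at D12S+, 1.32 at D16S+ and 0.602 in iPSCs, highest at D16S+ and lowest in iPSCs. The window printed above holds the composite letters on the opposite strand as well as Otx2 letters. Zfp42, also known as Rex1, had its member 101 bp upstream of the TSS, with octamer letters and 1.31, 2.88 and 1.505 CPM, the highest at D16S+ among the naive and late genes. Esrrb, which codes for an orphan nuclear receptor, had 3 members, the strongest 2.41 kb upstream with letters of its own factor and 1.42, 1.61 and 1.28 CPM. Klf5 had 0.738, 1.23 and 0.677 CPM at a member 3.01 kb downstream of the TSS. All 4 were highest at D16S+.

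Distal members near other naive factors varied more. The member 15.5 kb downstream of Klf2 had 0.568, 1.18 and 0.865 CPM, and the strongest of 3 near Prdm14, a repressor of FGF receptor signalling, had 0.795, 1.18 and 1.02. The member 23.3 kb upstream of Sall4 had 0.568, 0.756 and 1.13 CPM and that 67.3 kb downstream of Klf4 had 0.908, 0.992 and 1.20. The last 2 were highest in iPSCs. In contrast, a member 18.5 kb downstream of Sox2 was highest at D12S+, with 1.02, 0.661 and 0.715 CPM. Nearness is a matter of position and does not show that a member acts on the gene.

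Among late markers, Fgf4, a growth factor gene with a known Oct4-Sox2 enhancer, had a promoter member with 0.511 CPM at D12S+, 1.46 at D16S+ and, in iPSCs, 1.20. Tdgf1, which codes for a Nodal co-receptor, had 1.31, 1.84 and 1.28 CPM and Dppa5a had 0.625, 1.04 and 0.715. Gdf3 had 0.965, 0.897 and 0.752 CPM and Zscan10 1.76, 1.51 and 0.903, both lowest in iPSCs, and Tdh, the threonine dehydrogenase gene, had 0.454, 0.708 and 0.790, highest there. The member 1.91 kb downstream of the TSS of Utf1, whose composite letters are printed above, had 0.795, 0.945 and 1.02 CPM. Members near Lefty1 (0.511, 0.992 and 0.790 CPM), Sall1 (0.965, 0.992 and 1.54), Jarid2 (1.48, 0.850 and 1.32) and Tcl1 (0.738, 0.425 and 0.527) had no common order. Of the 20 naive and late genes, 10 were highest at D16S+, 5 at D12S+ and 5 in iPSCs. These orders are by CPM in single libraries and rest on few tags. Gdf3 had pileups of 17, 19 and 20, all inside the Poisson interval of a pileup of 20 given above. Over the 27084 regions called in the 3 libraries, the median ratio of iPSCs to D16S+ was 0.674, so lower CPM in iPSCs was common.

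A member at a promoter did not always mean a promoter that was first called at D12S+, since the rule is about regions and a promoter can hold several. Of the 17 listed genes with a member in the promoter, 7 had no promoter call at D0, D3, D6T- or D9T-, namely Nanog, Zfp42, Dppa5a, Gdf3, Tdgf1, Nodal and Otx2. Over all 21418 protein-coding genes, 361 (1.69%) had a member in the promoter. How many of these lacked an early promoter call was not counted, so the 7 are a description without a background. Foxh1 and Zscan10 had another region called in their promoter in all 4 early libraries. Esrrb and Krt8 had such a call in 3 of them, Esrp1, Sp5 and Tdh in 2, and Fgf4, Grhl2 and Tex19.1 in 1. The promoters without an early call in the time course were thus those of 2 naive factors, 3 late markers and 2 further genes of the early embryo, but the Otx2 promoter had a call in D6 siNT.

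Genes of the primed epiblast and of epithelia had members as well. Of 13 primed genes, 5 had a member between promoter and TTS. Fgf5, a growth factor of the primed epiblast, had 1.48, 1.75 and 1.17 CPM at D12S+, D16S+ and in iPSCs at a member with Zic letters, Etv5 had 1.19, 0.945 and 0.752, and Otx2, a homeobox factor, had 0.625, 0.567 and 0.715. Dnmt3b and Lef1 had members under 0.9 CPM. By the nearest TSS, a member 14.1 kb downstream of Foxd3 had 0.681, 0.614 and 1.02 CPM, and one 21.8 kb downstream of Sox11 had 0.625, 0.945 and 0.640. Of 23 epithelial genes, 8 had a member. The E-cadherin gene Cdh1 had 1.02, 0.850 and 0.602 CPM, the splicing factor gene Esrp1 had 0.681, 1.28 and 0.941, the protease gene St14 had 0.852, 1.79 and 0.941, and Grhl2 had 0.908, 1.28 and 0.640. The Cdh1 member lies 28.7 kb inside the gene and was lower in CPM in each later library, with pileups of 18, 18 and 16 tags. The other 3 were highest at D16S+. Cdh3, Grhl3, Krt8 and Tjp3 made up the rest. Of 12 mesenchymal genes only Snai1, a repressor of Cdh1, had a member, with 0.738, 0.850 and 0.677 CPM.

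Among signalling pathways, 4 of 14 genes of the Nodal and TGF-beta list had a member. All 4 members overlapped promoters, that of Gdf3 with its summit 118 bp inside the gene. The genes were the ligands Nodal (0.965, 0.992 and 0.978 CPM, nearly level) and Gdf3, the co-receptor Tdgf1, and the nuclear partner Foxh1 (0.738, 0.661 and 0.941). The FGF and ERK list had 5 of 14 genes, namely the ligand Fgf4, the receptors Fgfr1 and Fgfr2, the inhibitor Spry1 and the target Etv5. Of the 2 members counted for Fgfr2, the strongest had the TSS of another gene, Htra1, nearest to it, 2.43 kb away. The Wnt list had 5 of 16, namely the receptor Lrp6, the nuclear factors Lef1 and Tcf7l1, and the targets Axin2 and Sp5. None of 9 LIF and Stat3 genes had a member between promoter and TTS, although Klf4, Pim1 and Socs3 were nearest to one within 100 kb.

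Of the 10 genes of DNA methylation, 4 had a member, among them all 3 Tet genes, whose enzymes oxidise methylcytosine. The Tet2 member had 2.16, 2.22 and 1.73 CPM, the highest D12S+ and iPSC levels of any listed gene except for an equal iPSC level at Tdrd12. Tet3 had 1.14, 1.42 and 0.941 CPM and Tet1 had 1.08, 0.803 and 0.865. Of 10 genes of Polycomb repressive complex 2, Eed, a core subunit, and Aebp2, an accessory subunit, had a member with 0.625 to 0.795 CPM. Of 14 germline genes, Tex19.1 had 1.02, 1.23 and 0.978 CPM at its promoter, and Tdrd12, which acts in the piRNA pathway, had 1.53, 1.28 and 1.73 in its genebody. Among the strongest members of the 52 listed genes, only that of Tdrd12 belonged to a family (family 2), and it holds the composite letters.

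Members were scattered, with few concentrations. They fell into 2055 windows of 500 kb, of which 1245 held 1 member. The share of union regions that were members lay between 1.13% on chromosome 15 and 2.00% on chromosome 1. The window from 66500001 to 67000000 of chromosome 13, with zinc finger genes such as Zfp640, held 9 members, 8 of them in families and 4 in the same one. A window of chromosome 7 from 29500001 also held 9, of which 7 lay in Ryr1, the calcium release channel gene of muscle, with 41 union regions over 122 kb. The window of chromosome 6 that starts at 122500001 and holds Nanog, Gdf3 and Dppa3 had 7 members, as did those around Mta3 on chromosome 17 and Golga3 on chromosome 5. By gene, Gm20388 held 12 members, but it spans 4435 kb with 1286 union regions. Sntg1 held 6, of which 5 were in families, and Pde4d, Abcc4, Foxn3, Il17rd, Sox5, Dip2c and Ptprn2 held 4 each.

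Few members were called in the siRNA libraries at D6. The rule did not use these libraries, but it required no call at D6T-, of the same day. Low shares are thus in part built into the choice, and all union regions were not filtered in this way. In D6 siNT 28 members (0.842%, 0.583 to 1.21) were called, against 20.1% of all union regions, and in D6 siH3.3 36 members (1.08%, 0.783 to 1.49), against 20.4%. The regions with no call before D12S+, a set that shares the early rule, had 0.419% and 0.584%, below the intervals of the members. With an equal number of strongest peaks taken from each library, the rule chose another set of 3261 regions, of which 5.55% were called in D6 siNT. The share over all union regions was not computed for that setting. Of the regions opening at D3, 77.2% and 76.0% were called in D6 siNT and D6 siH3.3, and of those opening at D6T- 49.0% and 54.9%. Both sets were chosen by a call at D6T-, among others, so they are not a like comparison. The members were called about as often with and without siRNA against H3.3, and the intervals overlap. Only 4 members were called in both, while 32 were called in D6 siH3.3 alone and 24 in D6 siNT alone. Those in both lay near Lrrtm3 (family 2, printed above), Emp2, Trp63 and Zfp516. The levels of members in the siRNA libraries were low, with a median of 0.551 CPM over the calls in D6 siNT and 0.562 in D6 siH3.3. None of the members called there was the strongest member of a listed gene. D6T- had 133132 peaks and D6 siNT 46481 at similar depth (21390800 and 21784047 tags), and the part of this difference in the shares was not tested.

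Members close to the threshold of the rule were weak. The lowest −log10 q-value of a member over its 3 late libraries had a median of 4.66 and reached from 1.72 to 49.4, and the 10 weakest members were all at 1.72. Regions that missed the rule by a single early call numbered 57 for D0, 525 for D3, 1214 for D6T- and 115 for D9T-. Their single early calls had median pileups of 15, 14, 14 and 10 tags and median −log10 q-values of 3.93, 3.75, 5.74 and 3.95. Among those that missed by a single late call, 3285 had none at D12S+, 800 none at D16S+ and 1223 none in iPSCs. Set beside 3327 members, the border with D12S+ was the widest, followed by those with iPSCs and D6T-.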

How the data were processed

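The authors aligned reads of 51 bp with STAR to mm9, dropped reads that mapped to several places or had many mismatches, removed duplicates with Picard and used MACS2 (version 2.1.0.20151222, as the headers record), with neither a control nor a local background, to find peaks at a q-value cutoff of 0.05, with tags extended to 200 bp. For each summit the deposited files give a signal, the pileup of extended tags, which the authors did not scale. They also give the deposited fold enrichment, a ratio to an even spread of tags, and the deposited −log10 p-value and −log10 q-value. The mitochondrial genome was to be removed, yet each deposited file still lists 1 such peak, which was left out. Members and gene lists were chosen with earlier results of these data known.

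Here summits of a peak were joined, peaks that overlapped were merged over the 7 libraries, and the highest pileup was divided by the tags of the library (CPM). Genes came from GENCODE vM1 on mm9 and sequences from NCBIM37. Families were found with blastn 2.17.0 and linked with networkx 3.6.1, and were examined after the data had been seen. Other steps used Python 3.11.15 with numpy 2.4.6, numba 0.67.0, pandas 2.3.3, scipy 1.17.1 and matplotlib 3.10.9, tested on simulated data. With 1 library per condition no test was run, and the depth given in the results limits single members to about the Poisson intervals given there.

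The text names the 10 members with the highest minimum CPM (1 of them is not reported here), genes of 12 lists with a member between promoter and TTS (for the naive, late and primed lists also by the nearest TSS within 100 kb), the 10 genes and 5 windows of 500 kb with most members, and the 5 members with the largest ratio between D12S+ and iPSCs in each direction. Alternatives were a stricter q-value, equal peak numbers, joining of near peaks, a larger overlap, leaving out D9T-, adding chromosome X, other promoter and motif windows, another summit, fold enrichment in place of CPM and, chosen after seeing the data, leaving out families. Experiments other than ATAC-Seq were not analysed here.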

Additional observations from a re-analysis of the deposited data

How the results depend on the processing

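The number of members was 3138 with a −log10 q-value of at least 3, 3261 with the 36708 strongest peaks of each library, 3196 with peaks up to 200 bp apart joined, 3439 with an overlap of 50%, 3442 without D9T-, 3415 with chromosome X and 2475 without the families. Of 40 recomputed values 29 stayed close to the reported one (for the number of members, within 1.5-fold, and for shares and ratios, within the 95% interval of the reported value). Taking these 36708 peaks from each drops weak calls, early and late, of every time-course library but D9T-, so the set chosen is not the same. In that set promoters made up 18.9%, 5.55% were called in D6 siNT, 3.04% held the composite letters and the median ratio of D16S+ to D12S+ was 1.09. Promoters made up 6.64% when these ran from 1 kb before to 100 bp after the TSS, and 8.90% with protein-coding genes only. The composite letters were in 7.78% with a 400 bp window, and the ratio was 1.22 by fold enrichment. Without the families, which was chosen after seeing the data, these were 13.1% for promoters, 2.42% for the composite letters and 1.13 for the ratio. Causes other than a longer window or a shorter promoter were not tested. No paired analysis was possible because each condition had 1 library. Levels below the lowest called pileup were not detectable at this depth, above all at D9T-.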
